A study of Mus musculus with 5 samples.

Results

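CpG shores are the stretches that border CpG-dense DNA, and here they were taken as 1 kb tiles of the 19 mouse autosomes at a distance of 1 or 2 tiles from a CpG-dense tile. A tile was called dense when it held at least 50 CpG dyads, that is, CpG sites counted once for both strands, and 14633 tiles were dense. Of 45657 shore tiles with a CpG dyad, 33738 had at least 20 methylation calls in every library, and these shores were 3.30% of the 1021389 autosomal tiles that reached this depth. They comprised 19135 tiles next to a dense tile (distance 1) and 14603 tiles 1 further out (distance 2). Tiles at a distance of 3 or 4 are called shelves, and tiles at 5 or more are called distant tiles.

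In mammalian genomes most CpG sites are methylated, whereas CpG islands, which often surround the start sites of genes, are usually free of methylation. Shores lie where one state passes into the other, and their methylation is known to vary between tissues and in cancer. TET2 oxidizes 5-methylcytosine, a step on the way to its removal, and TET2 is often mutated in acute myeloid leukemia. The whole-genome bisulfite libraries analyzed here came from leukemic blasts of the bone marrow of mice, and the design compares intact with deleted Tet2.

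All 5 libraries were Cebpa-/p30 on a C57BL/6 background, so that only the short p30 isoform of the myeloid transcription factor C/EBPα could be made. Of these, 2 were Tet2+/+ (numbers 23 and 24) and 3 were Tet2-/- (numbers 5, 7 and 8). Per the methods of the study, floxed alleles were deleted in donor bone marrow cells by Mx1-Cre after Poly(I)-Poly(C) injection, the cells had been transplanted into irradiated congenic recipients, and blasts were sorted from moribund mice as donor-derived cells that lacked T-cell, B-cell and erythroid surface markers. Nothing in the labels says whether the leukemias of a group came from separate donors, so p-values measure the spread between these samples. In bulk DNA, a change in the mixture of cells and a change of methylation within cells cannot be told apart.

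Bisulfite reads count a methylated or an unmethylated call at each cytosine, and the weighted methylation level of a region is the percentage of its calls that were methylated. The libraries held 61122068 to 107360283 calls on the autosomes, or 2.999 to 5.27 calls per dyad. Depth differed by class and library. Covered dense tiles held 3.27 and 3.30 calls per dyad in Tet2+/+ and 5.18, 6.37 and 2.98 in Tet2-/- 5, 7 and 8. Distant tiles held 4.40 and 4.20 against 6.06, 6.23 and 3.59. The part of this unevenness in the differences between classes was not tested. The deletion was visible in these calls: the tile chr3:133467001-133468000 in the last exon of Tet2, found by looking along that exon, held 24 and 35 calls in Tet2+/+ and 0 in each Tet2-/- library. The adjoining tile chr3:133466001-133467000 fell from 96 and 110 calls to 15, 11 and 8, while the rest of the gene was covered in all. A median shore tile held 52 calls in the shallowest library and 93 in the deepest. The 11919 shore tiles below the depth limit were poorer in CpG, with a median of 6 dyads against 15 in the covered shores, so that the results describe the CpG-richer shores. Shores with 20 to 24 calls in their lowest library differed between the groups by 8.85 percentage points, and those with 15 to 19 calls, just outside the limit, by 8.08 points. Shores with 45 to 49 dyads next to a dense tile rose from 12.9% to 16.4%, and dense tiles with 50 to 54 dyads from 16.3% to 19.4%.

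The covered shores were intermediate in composition. Their median GC content was 47.3% and their median observed-to-expected CpG ratio was 0.278, whereas the dense tiles had 61.6% and 0.764 and the distant tiles 45.1% and 0.220. The 200-base stretches below come from GRCm38 (plus strand, every CpG in capitals) and are shown because the same neighborhood held a region that changed beside one that did not, or because it changed in the opposite direction. The shore stretches at Lncppara and Tm7sf3, both at distance 2, carry fewer CpG sites than the stretch of their nearest dense tile. The shore at 1700001L05Rik, a long intergenic non-coding RNA gene, was one of the 5 that edgeR called lower.
Shore of Lncppara, chr15:85673573-85673772, 8 CpG sites: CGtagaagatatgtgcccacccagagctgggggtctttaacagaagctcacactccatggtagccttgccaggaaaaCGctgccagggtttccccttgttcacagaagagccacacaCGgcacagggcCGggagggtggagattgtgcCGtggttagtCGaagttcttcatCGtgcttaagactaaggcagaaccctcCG
Dense tile of Lncppara, chr15:85671250-85671449, 36 CpG sites: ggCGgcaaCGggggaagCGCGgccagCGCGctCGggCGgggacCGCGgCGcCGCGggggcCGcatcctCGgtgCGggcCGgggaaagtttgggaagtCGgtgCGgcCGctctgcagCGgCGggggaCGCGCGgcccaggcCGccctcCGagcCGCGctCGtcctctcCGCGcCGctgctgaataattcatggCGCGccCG
Shore of Tm7sf3, chr6:146632402-146632601, 7 CpG sites: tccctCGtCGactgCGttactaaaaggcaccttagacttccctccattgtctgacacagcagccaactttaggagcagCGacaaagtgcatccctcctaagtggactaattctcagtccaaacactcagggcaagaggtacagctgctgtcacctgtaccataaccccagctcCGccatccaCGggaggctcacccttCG
Dense tile of Tm7sf3, chr6:146634004-146634203, 15 CpG sites: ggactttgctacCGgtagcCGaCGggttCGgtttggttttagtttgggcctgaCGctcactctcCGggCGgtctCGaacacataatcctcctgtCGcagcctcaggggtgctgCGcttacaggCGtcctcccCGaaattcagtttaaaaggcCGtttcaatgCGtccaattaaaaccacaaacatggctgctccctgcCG
Shore of 1700001L05Rik, chr15:83366633-83366832, 9 CpG sites: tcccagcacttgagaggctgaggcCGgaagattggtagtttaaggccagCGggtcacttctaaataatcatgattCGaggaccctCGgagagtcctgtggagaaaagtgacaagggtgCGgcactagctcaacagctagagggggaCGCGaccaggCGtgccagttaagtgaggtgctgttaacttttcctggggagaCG
Dense tile of 1700001L05Rik, chr15:83367298-83367497, 20 CpG sites: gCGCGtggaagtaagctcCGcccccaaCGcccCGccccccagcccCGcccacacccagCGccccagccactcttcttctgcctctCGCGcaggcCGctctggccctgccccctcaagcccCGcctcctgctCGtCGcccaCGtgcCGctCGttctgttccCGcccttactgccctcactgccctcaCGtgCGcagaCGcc

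Shores were more methylated in every Tet2-/- library than in both Tet2+/+ libraries. In percentage points the gain was larger at distance 2 than at distance 1. When each tile was given equal weight in place of each call, the genotypes overlapped in that contrast. Over all shores, the level was 41.2% and 37.2% in Tet2+/+ 23 and 24, and 45.1%, 48.2% and 45.3% in Tet2-/- 5, 7 and 8. On average, shores were methylated at 39.2% ± 2.80 (SD, n = 2) with intact Tet2 and at 46.2% ± 1.70 (SD, n = 3) without it, which is 7.02 percentage points higher (exact permutation p = 0.1, two-sided). With 2 against 3 libraries, 0.1 is the smallest p that this exact test can give, so no single level could pass 0.05. The difference was 5.04 points without Tet2+/+ 24 and 8.99 points without Tet2+/+ 23.

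At distance 1 the level was 30.7% and 27.2% in Tet2+/+ and 34.2%, 36.6% and 34.7% in Tet2-/-, a difference of 6.19 points. At distance 2 it was 61.8% and 57.3% in Tet2+/+ and 67.2%, 72.1% and 66.98% in Tet2-/-, a difference of 9.22 points. The genotypes did not overlap at either distance, and Tet2-/- 7 was the highest library at both. Dense tiles, by contrast, rose from 9.58% ± 1.11 (SD, n = 2) to 11.4% ± 0.512 (SD, n = 3), by 1.82 points (1.04 without Tet2+/+ 24), shelves from 65.2% to 73.8%, by 8.62 points, and distant tiles from 69.0% to 76.8%, by 7.77 points. As a percentage of the Tet2+/+ level, the difference was 21.4% at distance 1, 15.5% at distance 2, 13.2% in shelves and 11.3% in distant tiles. As a percentage of what was unmethylated in Tet2+/+, the order was the opposite, with 8.72% at distance 1, 22.8% at distance 2 and 25.1% in distant tiles.

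**Figure D1:**
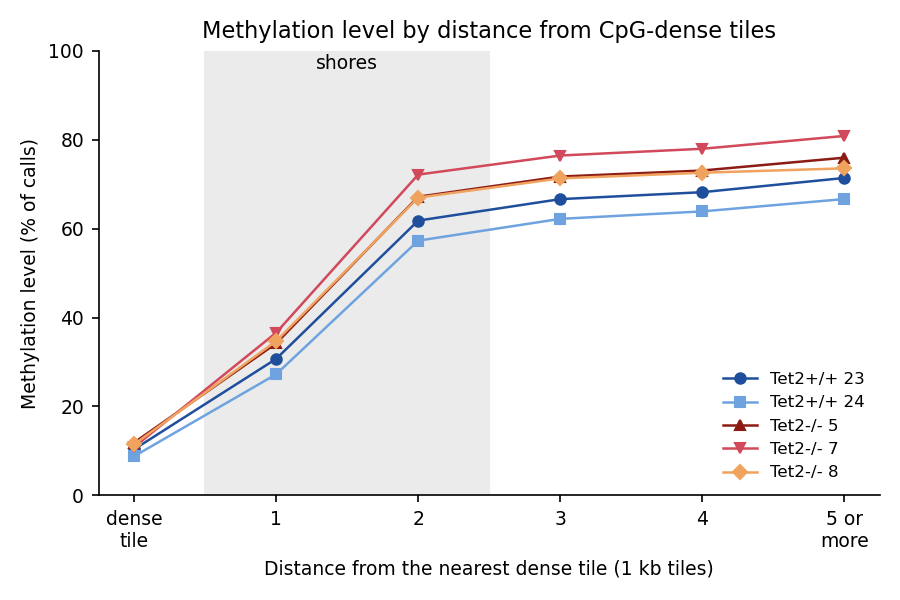
Weighted methylation level (percent, y axis) by distance from the nearest dense tile (x axis, in 1 kb tiles), with 1 line and marker type per library. Both shore distances show the 3 Tet2-/- libraries above the 2 Tet2+/+ libraries. In both groups the steepest step lies between distances 1 and 2. Their means, not drawn, go from 28.97% to 59.54% in Tet2+/+ and from 35.2% to 68.8% in Tet2-/-.

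The differences between these gains were then tested. The gain of shores exceeded that of dense tiles by 5.19 points, in that the step from dense tile to shore was 30.8 and 28.4 points in Tet2+/+ and 33.3, 37.3 and 33.9 points in Tet2-/- (exact permutation p = 0.1). Distance 2 gained 3.03 points more than distance 1 (exact permutation p = 0.2), and the genotypes did not overlap, but with equal weight for each tile it was 1.41 points and they overlapped (exact permutation p = 0.3). Against shelves, shores gained less, with a difference of gains of -1.60 points (exact permutation p = 0.2, no overlap), but when each tile was given equal weight in place of each call, it was 0.0179 points. It was also -0.901 points without Tet2-/- 7, -2.64 points with at least 50 calls per tile, and -0.800 points, with overlap, when tiles were called dense from 40 dyads. Against distant tiles, the difference of gains was -0.750 points and the genotypes overlapped (exact permutation p = 0.7). Adjusted by Benjamini-Hochberg over these 4 comparisons, the permutation p-values were 0.267 for the first 3 and 0.7 for distant tiles. On all 19 autosomes the Tet2-/- libraries lay above the Tet2+/+ libraries in shores, with differences from 5.28 to 7.76 points and a median of 6.94.

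To follow the transition at a finer scale, dyads were grouped into 100 bp steps from the edge of the dense tiles. Methylation rose steeply within the first kb in all libraries. It passed 50% at 775 and 899 bp from the edge in Tet2+/+ and at 653, 556 and 643 bp in Tet2-/-, so the 50% point lay nearer to the dense tile in every Tet2-/- library. Midway between the level inside and the level far out of the same library, the crossing was at 573 and 600 bp in Tet2+/+ and at 542, 510 and 524 bp in Tet2-/-. The difference between the genotypes was 2.89 points in the last 100 bp inside the dense tile, peaked at 9.61 points between 1000 and 1100 bp (55.4% against 65.0%), and was 7.98 points between 3900 and 4000 bp. The genotypes did not overlap in any of the 45 steps, which share the same 5 libraries and are not separate tests.

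**Figure D2:**
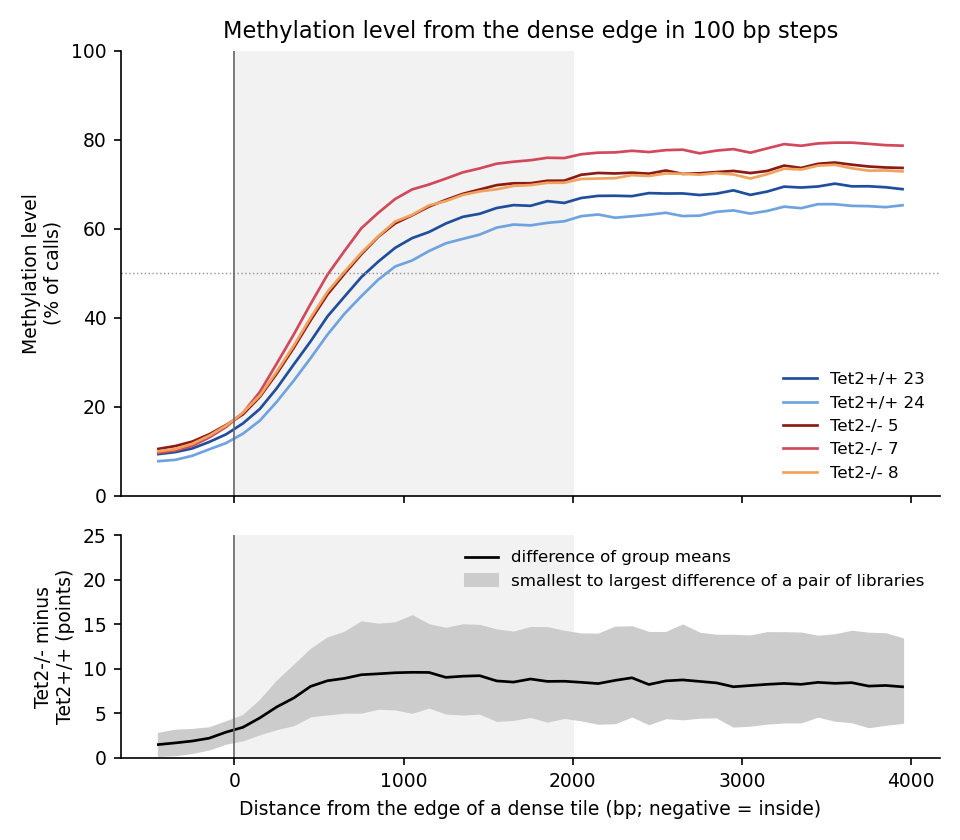
Methylation level of each library (upper panel, percent) and the difference of the group means (lower panel, percentage points) against the distance from the edge of a dense tile (bp, negative values inside it). The grey band spans the smallest to the largest difference between a Tet2-/- and a Tet2+/+ library, the shaded 0 to 2000 bp are the shores, and the difference has its highest value, 9.61 points, at 1000 to 1100 bp.

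Because shores hold more CpG sites than tiles further out, the classes were compared again at matched CpG density. Among tiles with 10 to 19 dyads, 16692 shores rose from 52.5% to 62.0%, a difference of 9.54 points against 8.99 in shelves and 8.09 in distant tiles. At 20 to 29 dyads the difference was 7.67 points in shores, 9.65 in shelves and 8.59 in distant tiles, and at 30 to 39 dyads it was 4.89, 7.38 and 6.15 points. At 40 to 49 dyads shores rose from 16.0% to 19.9%, by 3.90 points, against 6.04 in shelves and 3.20 in distant tiles, where the genotypes overlapped. Without Tet2+/+ 24 the difference in distant tiles was 3.48 points at 30 to 39 dyads and 1.15 points at 40 to 49. In shelves it was then 4.88 and 3.94 points, and in shores 3.47 and 2.81 points. With both distances pooled, shores thus exceeded shelves only at the lowest of these densities, by 0.552 points (exact permutation p = 0.2). With at least 50 calls per tile this sign turned (-0.164 points). The level itself was lower in shores than in shelves of that density in every library, with shore minus shelf at -16.1 and -16.3 points in Tet2+/+ and -16.0, -15.4 and -15.4 points in Tet2-/-.

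**Figure D3:**
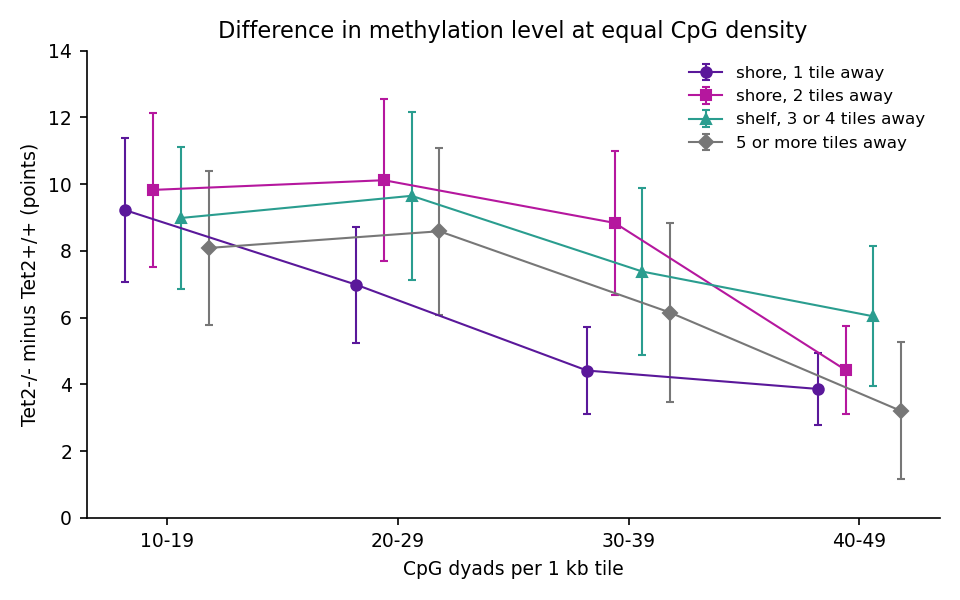
Difference of the group means (Tet2-/- minus Tet2+/+, percentage points) by number of CpG dyads per tile, for shores at distance 1 and 2, shelves and distant tiles. Error bars span the differences obtained when each library was left out in turn, and at distance 1 the points fall from 9.22 at 10 to 19 dyads to 3.86 at 40 to 49.

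Within that density range the distances behaved unequally. At distance 2 the difference was 9.83, 10.1, 8.84 and 4.43 points from the lowest to the highest density, and at distance 1 it was 9.22, 6.99, 4.41 and 3.86 points. Tiles of distance 2 with 10 to 19 dyads lay below shelves of that density, with differences of -5.29 and -5.65 points in Tet2+/+ and -4.92, -4.26 and -4.69 points in Tet2-/-. This gap was narrower in Tet2-/- by 0.842 points, without overlap (exact permutation p = 0.1), and by 0.484 points with at least 50 calls per tile. At 20 to 29 and 30 to 39 dyads the gap was narrower by 0.467 and 1.46 points, also without overlap (exact permutation p = 0.2 for both). At 40 to 49 dyads, with 197 tiles of distance 2, the gap was wider in Tet2-/-, with a difference of -1.61 points without overlap (exact permutation p = 0.1), which was -0.841 points without Tet2+/+ 24. These contrasts of distance 2 with shelves belonged to no adjusted family of comparisons, so their p-values are unadjusted.

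Shores were next divided by the state of the dense tile they border, from the mean of the 5 libraries. Beside 26980 shores whose dense tile was methylated below 20%, 4845 bordered one of 20 to 80% and 1363 one above 80%. The first of these sets rose from 35.7% to 42.7%, by 6.99 points. The second rose from 45.8% ± 2.58 (SD, n = 2) to 53.7% ± 1.25 (SD, n = 3), by 7.88 points, with a range of 6.06 to 9.71 points when each library was left out. The third was 79.4% and 75.6% in Tet2+/+ and 82.1%, 86.4% and 79.9% in Tet2-/-, a difference of 5.30 points (exact permutation p = 0.2), which was 3.36 points without Tet2+/+ 24, 3.48 without Tet2-/- 7 and 7.25 without Tet2+/+ 23. Beside such methylated dense tiles the slope ran the other way, with 80.5% at distance 1 and 73.0% at distance 2 in Tet2+/+.

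The side of the gene was also compared, for shores whose dense tile held start sites of protein-coding genes on 1 strand. At distance 1 the side within the gene was less methylated than the upstream side in all libraries, and the difference (gene side minus upstream) was -5.11 and -5.33 points in Tet2+/+ and -4.999, -5.36 and -4.81 points in Tet2-/-. At distance 2 it was more methylated, by 3.34 and 2.70 points in Tet2+/+ and 3.15, 4.27 and 4.72 points in Tet2-/-. The difference of the genotypes between the sides was 0.163 points at distance 1 and 1.03 points at distance 2, and the genotypes overlapped in both (exact permutation p = 0.5 and 0.3). Levels also differed with the presence of a start site. At distance 1, shores of dense tiles with a start site rose from 25.3% to 31.1% and those without one from 37.0% to 44.1%. The gain was lower beside dense tiles with a start site (difference of gains -1.34 points), and the genotypes did not overlap (exact permutation p = 0.1). This contrast was chosen after the data were seen and is 1 of 12 such contrasts, over which its Benjamini-Hochberg adjusted permutation p was 0.4. At distance 2 the gains were 9.19 and 9.30 points.

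The share of shores in a low, intermediate or high state moved with genotype. Shores methylated below 20% made up 25.7% and 28.7% of tiles in Tet2+/+ and 21.6%, 19% and 19.9% in Tet2-/-. Shores above 80% made up 24.3% and 19.99% in Tet2+/+ and 31.9%, 40.6% and 31.9% in Tet2-/-, so that their share was higher by 12.7 points. The intermediate share was 50.7% and 45.04% in the group means, with Tet2-/- 7 the lowest. The difference of -5.62 points was -3.28 points without Tet2-/- 7, and with at least 50 calls per tile the intermediate share was higher in Tet2-/- by 1.15 points. At distance 1 the share below 20% went from 40.02% to 30.7% and that above 80% from 11.2% to 19.5%. At distance 2 the same shares went from 10.4% to 6.33% and from 36.4% to 54.8%. In distant tiles they went from 3.56% to 2.12% and from 40.1% to 58.0%, so the rise above 80% was not particular to shores. The intermediate share of distant tiles differed by -16.5 points. In dense tiles the share below 20% went from 82.8% to 76.7%.

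**Figure D4:**
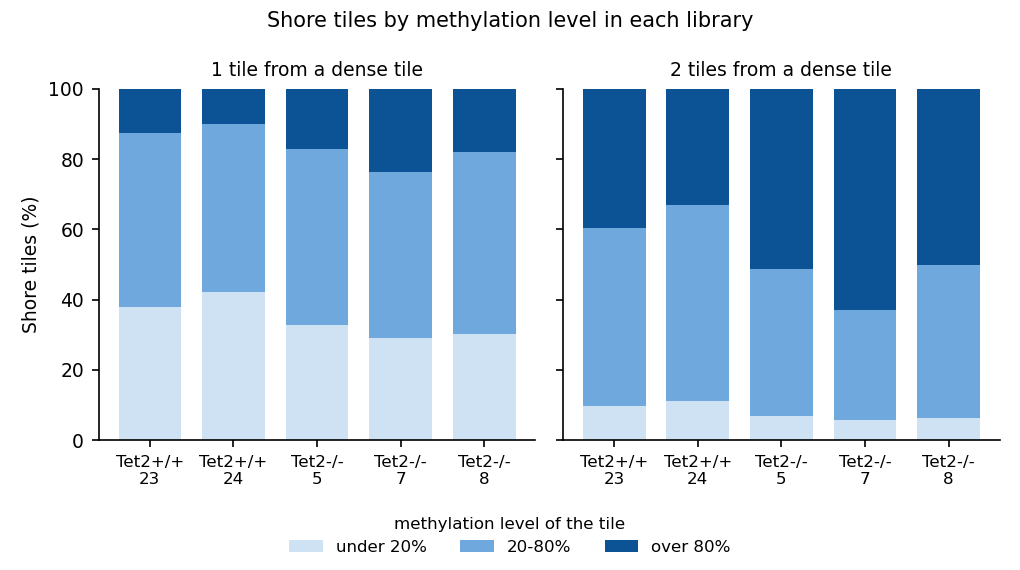
Percentage of shore tiles methylated below 20%, at 20 to 80% and above 80% in each library, by distance. At distance 2 the share above 80% is 33.1% and 39.7% in the Tet2+/+ libraries and 50.2% to 63.1% in the Tet2-/- libraries.

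Single shores differed widely. The median difference per tile was 6.47 points, the 5th percentile -4.36 and the 95th 28.4, against a median of 6.00 over all tiles. In 12971 shores, or 38.4%, all Tet2-/- libraries lay above both Tet2+/+ libraries, and in 778, or 2.31%, all lay below. Over all 1021389 tiles these shares were 33.2% and 2.03%, so the shores were close to the background. By distance the first share was 36.8% at distance 1 and 40.6% at distance 2. Neighboring tiles gained only loosely together. The difference of a distance 1 tile correlated with that of the distance 2 tile on its side with Pearson's r = 0.218 across 13524 pairs, and with that of the distance 1 tile across the dense tile with r = 0.0815 across 6681 pairs. With that of the dense tile beside it, r was 0.245 across 18988 pairs. Counting error in single tiles enters these values and was not separated. These are descriptions across tiles that share the same 5 libraries.

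Each tile was then tested with edgeR's quasi-likelihood test, with Benjamini-Hochberg adjustment over all 1021389 tiles at 0.05. In shores 1167 tiles were called higher in Tet2-/- and 5 lower, that is 3.46% and 0.0148%, against 2.36% and 0.0094% of all tiles. With at least 50 calls per tile the order was the opposite, with 5.61% of shores called higher against 6.08% of all tiles and 6.24% of distant tiles. Called higher were 628 tiles at distance 1 (3.28%) and 539 at distance 2 (3.69%), compared with 3.01% of shelves and 2.30% of distant tiles. The order of the 2 distances turned without Tet2-/- 7 (2.07% and 1.92%), without Tet2+/+ 24 (0.240% and 0.233%) and with at least 10 calls (2.42% and 2.41%). All 5 lower tiles lay at distance 1. Shores held more dyads and calls than distant tiles, and at 10 to 19 dyads the shares called higher were 3.63% at distance 1, 4.10% at distance 2, 3.24% in shelves and 2.66% in distant tiles. In denser tiles, distance 1 had lower shares than shelves and distant tiles. Its share was 3.89% at 20 to 29 dyads against 5.69% in shelves and 5.47% in distant tiles. At 30 to 39 dyads it was 2.35% against 5.25% and 5.08%. At 40 to 49 dyads it was 2.59% against 5.94% and 2.90%. Distance 2 had 7.67%, 6.03% and 2.03% at these densities. The differences between these shares were not tested.

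The number of calls depended on which libraries entered. Without Tet2+/+ 24 only 82 shores passed, 80 of them higher, and 77 were among the 1172 called with all libraries. These were 0.243% of shores, against 0.163% of all tiles. Without Tet2+/+ 23 it was 625 (1.85% against 1.24% of all tiles) and without Tet2-/- 7 it was 685 (2.03% against 1.16%). Without Tet2-/- 8 it was 872 (2.58% against 2.16%) and without Tet2-/- 5 it was 1215 (3.60% against 2.17%). Limma called 1173 shores (3.48% against 2.28%), of which 1048 were shared. The median log2 ratio of methylated to unmethylated calls was higher in Tet2-/- by 0.67 over all tiles and by 0.83 over shores. With each library's median subtracted, limma called 130 shores higher and 8 lower (0.385% and 0.0237%, against 0.306% and 0.0401% of all tiles).

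The 1167 shores called higher had a median level of 30.6% in Tet2+/+ and 74.9% in Tet2-/-, with a median difference of 36.0 points, and in 1159 the genotypes did not overlap. These shores were selected by the test on the same values, so neither the size of the difference nor the lack of overlap is a separate result. The dense tiles that these shores border differed by a median of 1.28 points, and 93 of the shores (7.97%) had a dense tile that was itself called higher. Of all dense tiles, 2.43% were called higher. The former is a share of shores and the latter a share of dense tiles, so they are not directly comparable. A dense tile with a start site of a protein-coding gene stood beside 741 of them (63.5%), against 67.4% of all shores.

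The 6 shores with the largest gains among those called, without overlap, are named here. They were ranked by size, so their differences are the extremes of 1159. The first was the tile chr15:85673001-85674000, with 13 dyads, at distance 2 within an intron of the non-coding transcript Lncppara. The nearest protein-coding gene was Ppara, which encodes a fatty acid-sensing nuclear receptor, at 60983 bp. Its level was 13.4% and 4.76% in Tet2+/+ and 91.7%, 68.6% and 93.1% in Tet2-/- (edgeR adjusted p = 1.22e-06). In the 200 bases printed above, the level was 12.2% and 3.03% against 93.4%, 60.3% and 100%, while the printed dense stretch stayed between 0% and 1.69% in all libraries.

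The second was chr7:44551001-44552000, with 37 dyads, in Nr1h2, which encodes the oxysterol receptor LXRβ, and 48.6% of the tile was exonic. Its level was 35.8% and 3.23% in Tet2+/+ and 96.7%, 96% and 91.5% in Tet2-/- (edgeR adjusted p = 1.99e-07). The third, chr6:146632001-146633000, lay in an intron of Tm7sf3, with 5% and 3.82% against 50.6%, 94.1% and 83.2% (edgeR adjusted p = 8.39e-07). There Tet2-/- 5 was well below the other Tet2-/- libraries, and the printed dense stretch held at most 2.02%.

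The fourth, chr12:25094001-25095000, covered exonic and intronic sequence of Id2, an inhibitor of helix-loop-helix transcription factors, and rose from 9.57% and 20.8% to 79.3%, 82.3% and 95.2%. An intronic tile of Armc1 (chr3:19161001-19162000, distance 1, 7 dyads) rose from 13.8% and 8.33% to 75.0%, 89.2% and 77.3%. A tile of Rbpms, which encodes an RNA-binding protein (chr8:33927001-33928000, distance 2, 5 dyads), rose from 11.4% and 12.1% to 84.6%, 86.0% and 69.0%. Apart from Nr1h2 in Tet2+/+ 23 and Id2 in Tet2+/+ 24, the Tet2+/+ levels of these 6 shores were below 15%, and all 6 passed edgeR without any 1 of the libraries and limma with medians subtracted.

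**Figure D5:**
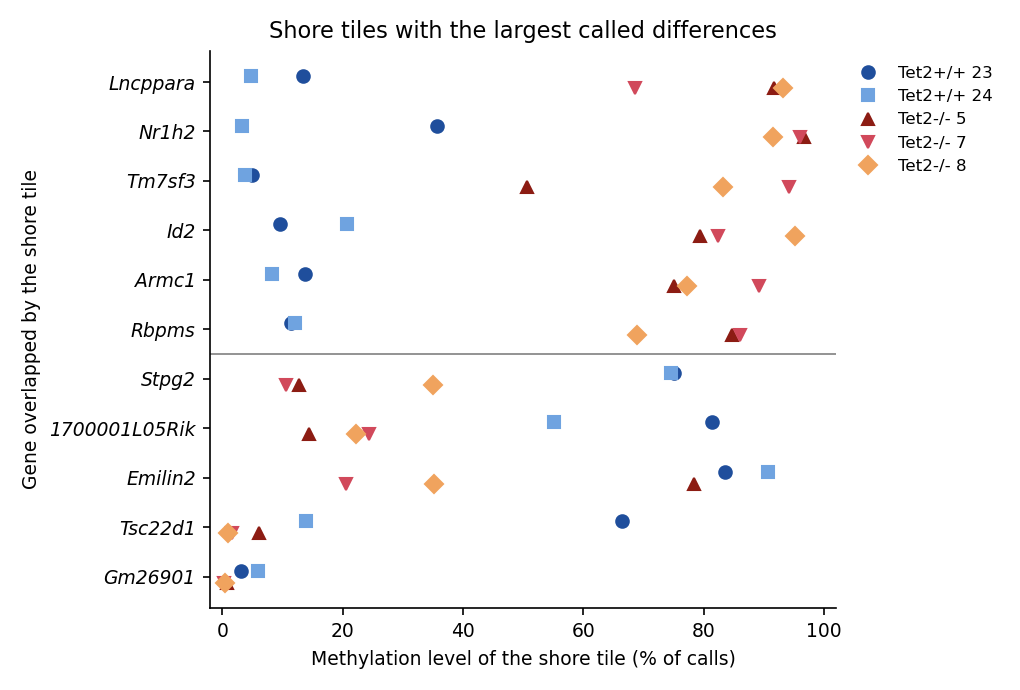
Methylation level (percent) of each library in the 6 shores with the largest gains and the 5 shores called lower, with 1 point per library. In the gains the Tet2+/+ points lie between 3.23% and 35.8% and the Tet2-/- points between 50.6% and 96.7%, whereas the losses at Emilin2 and Tsc22d1 show a wide spread within a group.

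Only 5 shores were called lower, and each was next to its dense tile. In an intron of Stpg2 (chr3:139564001-139565000) the level was 75.0% and 74.5% in Tet2+/+ and 12.8%, 10.5% and 35% in Tet2-/- (edgeR adjusted p = 0.00161), from as few as 20 calls in a library. This tile lies on the chromosome of Tet2 itself, and 1 of the 5 losses and 4 of the 1167 gains (0.343%) lay in a 10 Mb segment around that gene, which held 61 of all shores (0.181%). Sequence that flanks a targeted gene can differ between genotypes, and its part in this loss was not tested. Its dense tile was itself methylated, at 90% and 93.3% in Tet2+/+ and 76.5%, 75% and 83.3% in Tet2-/-. The shore was not called without Tet2+/+ 24 (edgeR adjusted p = 0.0882).

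The tile of 1700001L05Rik (chr15:83366001-83367000) was at 81.3% and 55.2% in Tet2+/+ and 14.3%, 24.4% and 22.3% in Tet2-/- (edgeR adjusted p = 0.00200). Its dense tile differed between the Tet2+/+ libraries themselves, with 91.8% in 23 and 32.7% in 24, and held 7.23%, 6.91% and 10.2% in Tet2-/-. In the printed shore stretch the level was 87.5% and 65.9% against 12.8%, 65.4% and 39.5%, so that Tet2-/- 7 was close to Tet2+/+ 24 there. In the printed dense stretch the only methylated library was Tet2+/+ 23, with 92.9% against 0% to 1.33% in the others. Without Tet2+/+ 23 the shore was not called (edgeR adjusted p = 0.146).

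The shore of Emilin2, which encodes an extracellular matrix glycoprotein (chr17:71309001-71310000), was at 83.5% and 90.6% in Tet2+/+ and at 78.4%, 20.6% and 35.1% in Tet2-/-, so that Tet2-/- 5 was close to the Tet2+/+ libraries (edgeR adjusted p = 0.0139). It was not called without Tet2+/+ 24, Tet2-/- 7 or Tet2-/- 8. The shore of the transcription regulator Tsc22d1 (chr14:76505001-76506000) was at 66.4% and 13.9% in Tet2+/+ and at 6.15%, 1.65% and 0.98% in Tet2-/-, and was not called without Tet2+/+ 23 (edgeR adjusted p = 0.175). The fifth loss, in Gm26901 (chr1:7397001-7398000), was 3.07% and 5.92% against 0.72%, 0.33% and 0.45% and was lost when any 1 library was left out. Its dense tile was higher in Tet2-/-, with 7.32% and 14.6% against 15.4%, 19.6% and 19.8%. All 5 losses thus failed in at least 1 of these fits.

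The genes with shores were then described by lists of known role, each with the shores of the dense tiles that hold its start site. Among all shores whose dense tile held a start site of a protein-coding gene, 3.26% were called higher. Their median difference was 6.24 points. Differences between the shares of the lists and these shares were not tested. Of 28 hematopoietic transcription factor genes, 17 had covered shores, and of their 45 tiles 3 were called higher (6.67%, against 3.46% of all shores) and none lower, with a median difference of 5.72 points. Runx3, a Runt-domain factor of lymphoid and myeloid lineages, was at 42.2% and 35.04% in Tet2+/+ and 54.2%, 58.0% and 59.2% in Tet2-/-, a difference of 18.5 points, but no tile of it was called (lowest edgeR adjusted p = 0.0836). Hoxa10, a homeobox gene of hematopoietic progenitors, was at 22.6% and 21.8% against 34.6%, 38.4% and 43.7%, a difference of 16.7 points, and 1 of its 7 shore tiles was called. The single shore tile of Gata2, which encodes a stem and progenitor cell factor, was at 83.3% and 72.7% against 85.0%, 93.5% and 87.0%, from 23 to 60 calls (edgeR adjusted p = 0.502). At Runx1 and Lmo2 the level in shores was 1.77% against 0.545% and 13.1% against 11.9% in the group means, and the genotypes overlapped. Cebpa and Spi1 had no covered shore tile.

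Among 25 genes of myeloid receptors and effectors only 3 had covered shores, and 2 of their 10 tiles were called higher (20%, against 3.46% of all shores). That share rests on 10 tiles, and its difference from that of all shores was not tested. Flt3, the receptor tyrosine kinase of early progenitors, rose from 46.1% and 45.1% in Tet2+/+ to 63.7%, 72.8% and 69.6% in Tet2-/- over its 4 shore tiles. That difference was 23.1 points, and 1 tile was called (edgeR adjusted p = 0.00434). Its dense tile stayed low, at 2.55% against 1.69% in the group means. Csf2ra, the α chain of the GM-CSF receptor, was at 13.8% and 11.4% against 35.2%, 48.98% and 20.8%, and its dense tile was itself uneven, from 0.714% in Tet2-/- 7 to 37.8% in Tet2+/+ 23.

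Of 20 genes for enzymes and readers of DNA methylation, 17 had shores, and 1 of their 52 tiles was called higher (1.92%, against 3.46% of all shores). In Mbd2, which encodes a methyl-CpG-binding protein, the shores were at 45.3% and 24.8% in Tet2+/+ and at 61.5%, 62.9% and 63.0% in Tet2-/- (edgeR adjusted p = 0.00492 for its called tile). Those of Mbd1, of the same family, were at 31.7% and 11.7% against 36.7%, 48.7% and 31.1%, with overlap and no tile called. Shores of Uhrf2, a RING finger protein that binds modified cytosine, were at 31.1% and 43.9% against 27.9%, 20.2% and 24.9%. Those of the de novo methyltransferase gene Dnmt3b were at 64.3% and 63.4% against 62.2%, 49.1% and 52.7%, lower in all Tet2-/- libraries, but no tile of either gene was called. The 2 shore tiles of Tet2 were at 7.11% and 2.75% against 5.99%, 5.88% and 4.66%.

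Of the tumor suppressor genes, 15 of 22 had shores, and 2 of 35 tiles were called higher (5.71%, against 3.46% of all shores). The shores of Cdh1, the gene of E-cadherin, were at 48.1% and 51.1% in Tet2+/+ and 59.1%, 72.7% and 63.5% in Tet2-/-. Those of Socs3, an inhibitor of cytokine signaling, were at 21.4% and 25.6% against 34.6%, 34.2% and 42.5%, and no tile was called. Developmental transcription factor genes, most of which are silent in blood, had 55 shore tiles in 20 of 30 genes, with 1 called higher (1.82%, against 3.46% of all shores), at Hoxd13 (20.1% and 14.5% against 30.6%, 31.3% and 35.4%). At Gata4 the level was 28.4% and 27.2% against 26.3%, 23.03% and 26.6%, and at Pax3 and Sox9 the genotypes overlapped. Ribosomal protein genes, which all cells express, had 67 shore tiles in 23 of 26 genes, with 2 called higher (2.99%, against 3.46% of all shores) and a median difference of 7.56 points. The highest were Rps2, at 51.8% and 33.7% against 56.6%, 79.7% and 68.3%, and Rps3, at 35.2% and 27.8% against 48.8%, 65.9% and 46.1%, but no tile of Rps3 was called (lowest edgeR adjusted p = 0.0596). In Rps24 and Rpl23 the genotypes overlapped.

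Genes that the study listed as lower or higher in RNA in Tet2-deficient leukemias were used by membership only. These lists come from related leukemias and are not independent evidence of a direction here. Of 176 genes lower in RNA, 57 had shores, and 10 of 158 tiles (6.33%) were called higher. Of 58 genes higher in RNA, 28 had shores, and 5 of 91 tiles (5.49%) were called higher, against 3.46% of all shores. Among shores whose dense tile held a start site of a protein-coding gene, the like set for these lists, it was 3.26%. The differences between the shares of the lists and these shares were not tested. The median differences of 6.07 and 6.58 points lay on either side of the 6.47 points of all shores, and no tile of either list was called lower.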

How the data were processed

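Whole-genome bisulfite libraries were prepared by the authors with the Pico Methyl-Seq kit and sequenced on a NextSeq 500. Reads were trimmed with Trim Galore 0.4.3, checked with FastQC 0.11.7, aligned to GRCm38 (mm10) in non-directional mode with Bismark 0.19.1 and Bowtie 2, deduplicated and called with the Bismark methylation extractor. For each CpG cytosine the deposited files give raw counts of reads that called it methylated and of reads that called it unmethylated, without normalization. Removal of duplicates by position does not count molecules, so depth limits cover counting error only. No batch is named in the labels.

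Calls of both strands were summed per tile. Tiles started at base 1, and 20 calls were required in every library. Groups follow the genotype given in each library's title. Levels were compared by a two-sided exact permutation test of 2 against 3 libraries. Over the 6 distance classes the Benjamini-Hochberg adjusted p was 0.12 or 0.2, and it was not below 0.15 in any other family of comparisons. For single tiles edgeR 4.0.16 was used under R 4.3.3, with 2 columns per library (methylated counts, unmethylated counts), trended dispersion and the quasi-likelihood test (glmQLFit, glmQLFTest), adjusted over all tiles at 0.05. The prior degrees of freedom were 55.5 against 3 residual ones, so a tile's own spread had little weight. Alternatives were edgeR's likelihood ratio test and limma 3.58.1 on log2((methylated + 2)/(unmethylated + 2)), with and without library medians subtracted, minimums of 10 and 50 calls, dense limits of 40 and 60 dyads, tiles starting at base 501 and leaving out each library. The edgeR and limma tests with all libraries were also run on simulated data.

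Named shores were, in each direction, up to 6 called tiles without overlap between the genotypes, ranked by the difference of means. Named genes were Gata2, Cebpa, Tet2, Runx1 and Spi1 and, per list of known role, the 2 with the largest difference in each direction that had at least 100 calls in every library. The shores, lists and named genes were chosen with earlier results of these data known. Start sites, exons and bases were read from the GRCm38 reference.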

Additional observations from a re-analysis of the deposited data

How the results depend on the processing

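Of 371 values of levels, gains, shares, counts and list medians recomputed under other settings, 340 stayed within the spread between libraries or within 1.5 times the count, of which 4 changed sign, and 3 of the others changed sign, all values whose genotypes had not overlapped. The 4 were in shores minus distant tiles (-0.750 to 0.932 with equal tile weight and 0.300 without Tet2-/- 7) and in the same contrast at 40 to 49 dyads (0.6997 to -0.262 without Tet2+/+ 23 and -0.159 without Tet2-/- 8). Of the 340, 168 came from leaving out 1 library. For levels, gains and shares the spread came from the same libraries, and leaving out a Tet2-/- library cannot move a value beyond it. The count of 340 is therefore no test of stability against single libraries. With tiles weighted equally, the gain was 2.80 points in dense tiles, 7.94 at distance 1 and 8.55 in all shores. Shores minus shelves was then 0.0179 points and distance 2 minus distance 1 was 1.41 points. With at least 50 calls, shores minus shelves at 10 to 19 dyads was -0.164 points, the share of shores under 20% differed by -9.68 points and the intermediate share by 1.15. EdgeR's likelihood ratio test called 1957 shores (1944 higher, 13 lower), 5.80% against 4.14% of all tiles, limma called 8 lower, limma with library medians subtracted called 138 (130 higher, 8 lower), and a dense limit of 60 dyads left 3 lower.

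Leaving out each library gave 82 to 1215 called shores, 80 to 1205 higher and 2 to 10 lower, with the fewest without Tet2+/+ 24. It gave 1.04 to 2.60 points for dense tiles, -3.14 to -1.13 for shores minus shelves at 40 to 49 dyads, 6.06 to 9.71 for shores of intermediate dense tiles and 4.25 to 8.42 for the median of developmental transcription factors. Named shores kept their call in 95 of 107 fits. Every fit that lost a call concerned a shore called lower. Named shores had been chosen by the fit to these same libraries, so a kept call is not separate evidence. No paired analysis was possible because the genotypes share no replicate number. Leaving out the segment around Tet2 was chosen after the data were seen. Depth limits single tiles: shores with 20 calls in a library resolve a level only in steps of 5 points.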

Other observations

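Other features of the shores and of the dense tiles beside them were compared after the values above had been seen. Shores of distance 2 beside a run of 3 or more dense tiles were at 47.8% and 42.9% in Tet2+/+ and 53.9%, 57.9% and 53.9% in Tet2-/-, below the 61.0% and 70.1% (group means) of those beside a single dense tile. At distance 1 the levels beside such runs and beside single dense tiles were 28.4% and 28.1% in Tet2+/+, and the gains of 7.61 and 5.84 points differed by 1.77 points without overlap (exact permutation p = 0.2). Also at distance 1, the level fell with the density of the neighbor, from 35.2% in Tet2+/+ and 42.0% in Tet2-/- beside dense tiles of 50 to 59 dyads to 23.2% and 28.9% beside those of 80 or more. The gains were 6.77 and 5.68 points, and their difference was -1.09 points (exact permutation p = 0.2). At distance 2 the gain ran the other way, with 8.53 and 9.62 points and a difference of 1.10 points without overlap (exact permutation p = 0.1).

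Shores that were mostly repeat-masked were the most methylated of the features compared at both distances, at 54.6% and 60.8% at distance 1 and 73.1% and 80.7% at distance 2 in the 2 genotypes. Their gains of 6.22 and 7.67 points differed from those of shores without a repeat-masked base, 6.33 and 8.52 points, by less than the spread between libraries. Shores that were at least 50% exonic were at 39.2% and 46.2% at distance 1, above the 27.9% and 34.7% of shores within genes but without an exon. The gain of these exonic shores was 7.06 points and that of the exon-free ones 6.74 points, and the genotypes overlapped in the difference (exact permutation p = 0.6). At distance 2 the gains were 8.93 and 9.64 points, a difference of -0.710 points without overlap (exact permutation p = 0.2). Over the 12 contrasts of this kind the lowest Benjamini-Hochberg adjusted p was 0.4.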
